A study of Homo sapiens with 4 samples.

Results

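The 267 WDR5 peaks described here lie outside transcripts: none of their lines in the deposited peak tables is marked as exon or intron, so each was listed only for lying up to 20 kb upstream or downstream of a transcript. They were 267 of 928 distinct WDR5 peaks listed, 191 of the 703 in RS4;11 and 76 of the 225 in THP-1. Peaks with no transcript within 20 kb were not listed and enter no count here. RS4;11 is a B-cell precursor acute lymphoblastic leukemia line and THP-1 a monocytic acute myeloid leukemia line, and both carry MLL rearrangements. ChIP-seq of WDR5 (antibody ab56919) and of H3K4me3 (antibody ab8580) was done once in each line, on cells grown in RPMI 1640 medium with serum and with no treatment named, giving 4 samples and no replicates. All intervals and tests below are therefore over peaks and not over cultures, and the sequencing depth behind them is unknown because the tables give peak positions without reads, heights or p-values. The other WDR5 peaks, 512 in RS4;11 and 149 in THP-1 cells, touch an exon or intron and are called inside peaks.

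WDR5 is a WD-repeat protein shared by the MLL and SET1 complexes, which methylate lysine 4 of histone H3. The trimethylated form, H3K4me3, marks the starts of active genes and is usually found over promoters rich in CG dinucleotides. Peaks outside transcripts can lie in promoters just before a transcription start site (TSS), in distal regulatory DNA, behind the end of a gene, or in repeated DNA.

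The sequences below were taken from outside peaks that overlapped H3K4me3 or were found in both lines, with 1 peak near a TSS that did neither. They are the plus strand of GRCh37, the assembly with the coordinates of hg19. The first group comes from DNA with copies or repeats, since these made up most of the outside peaks seen in both lines. In the 2 stretches near MIR1977, capitals mark the bases that differ from the mitochondrial genome, 1 of 200 and 3 of 200 bases. In the ROCK1 stretch, capitals mark the 182 of 300 bases that equal the base 171 bp further along. In the MAMDC2 stretch they mark units of GGAAT, which cover 185 of 250 bases.
MIR1977, RS4;11 peak, chr1:565670-565869: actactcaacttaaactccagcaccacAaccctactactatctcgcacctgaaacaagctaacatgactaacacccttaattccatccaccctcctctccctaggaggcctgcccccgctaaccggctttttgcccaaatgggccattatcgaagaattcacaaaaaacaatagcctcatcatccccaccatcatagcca
MIR1977, THP-1 peak, chr1:569853-570052: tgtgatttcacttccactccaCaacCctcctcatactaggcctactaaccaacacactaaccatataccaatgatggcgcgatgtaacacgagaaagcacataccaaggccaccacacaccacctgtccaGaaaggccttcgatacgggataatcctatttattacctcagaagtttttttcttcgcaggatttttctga
ROCK1, RS4;11 peak, chr18:18512859-18513158: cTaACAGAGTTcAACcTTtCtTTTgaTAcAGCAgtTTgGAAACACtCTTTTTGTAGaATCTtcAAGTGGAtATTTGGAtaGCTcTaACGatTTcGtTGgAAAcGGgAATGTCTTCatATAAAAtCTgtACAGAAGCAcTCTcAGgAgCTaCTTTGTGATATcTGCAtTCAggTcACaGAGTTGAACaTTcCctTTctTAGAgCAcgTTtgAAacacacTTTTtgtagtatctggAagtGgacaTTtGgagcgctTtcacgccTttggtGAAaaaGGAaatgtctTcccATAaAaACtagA
MAMDC2, RS4;11 peak, chr9:72653150-72653399: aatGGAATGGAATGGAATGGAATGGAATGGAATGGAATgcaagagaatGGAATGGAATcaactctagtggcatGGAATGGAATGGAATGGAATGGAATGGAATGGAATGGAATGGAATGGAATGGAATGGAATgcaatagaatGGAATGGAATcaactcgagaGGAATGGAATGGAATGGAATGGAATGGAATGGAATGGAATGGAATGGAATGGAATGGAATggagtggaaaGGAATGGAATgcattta

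The second group comes from outside peaks in DNA found once in the genome, shown because they lie near gene starts or carry H3K4me3, and capitals mark CG dinucleotides. The MRPL41 stretch holds 30 CG pairs in 240 bases, MYBBP1A 15, NBR1 8, L3MBTL2 7 and CHCHD1 4, and the 226 bases of the CRBN peak hold 2. All 6 overlapped H3K4me3 of their own line. The ETV6 stretch holds 19 CG pairs, and its nearest H3K4me3 peak in RS4;11 cells was 7769 bp away, so the number of CG pairs did not order these few peaks by their mark.
MRPL41, RS4;11 peak, chr9:140445742-140445981: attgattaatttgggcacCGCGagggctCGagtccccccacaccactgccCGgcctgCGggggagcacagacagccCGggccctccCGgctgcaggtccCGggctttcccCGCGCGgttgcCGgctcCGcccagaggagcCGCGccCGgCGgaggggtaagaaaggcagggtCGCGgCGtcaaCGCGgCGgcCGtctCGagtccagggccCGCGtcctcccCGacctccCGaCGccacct
MYBBP1A, RS4;11 peak, chr17:4458840-4459079: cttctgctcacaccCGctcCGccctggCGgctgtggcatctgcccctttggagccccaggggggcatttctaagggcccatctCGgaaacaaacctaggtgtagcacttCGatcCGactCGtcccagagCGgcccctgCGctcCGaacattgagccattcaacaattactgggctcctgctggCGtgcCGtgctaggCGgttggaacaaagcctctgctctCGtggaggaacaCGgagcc
NBR1, RS4;11 peak, chr17:41382006-41382245: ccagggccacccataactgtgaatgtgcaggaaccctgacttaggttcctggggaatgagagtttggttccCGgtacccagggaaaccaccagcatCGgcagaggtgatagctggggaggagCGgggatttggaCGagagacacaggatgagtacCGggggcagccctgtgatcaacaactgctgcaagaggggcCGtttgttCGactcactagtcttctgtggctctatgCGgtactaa
L3MBTL2, RS4;11 peak, chr22:41600865-41601104: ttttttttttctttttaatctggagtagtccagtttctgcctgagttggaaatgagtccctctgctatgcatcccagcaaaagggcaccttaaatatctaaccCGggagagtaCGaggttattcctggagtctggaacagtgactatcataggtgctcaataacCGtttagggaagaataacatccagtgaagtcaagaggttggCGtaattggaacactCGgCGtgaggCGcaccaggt
CRBN, RS4;11 peak, chr3:3221656-3221881: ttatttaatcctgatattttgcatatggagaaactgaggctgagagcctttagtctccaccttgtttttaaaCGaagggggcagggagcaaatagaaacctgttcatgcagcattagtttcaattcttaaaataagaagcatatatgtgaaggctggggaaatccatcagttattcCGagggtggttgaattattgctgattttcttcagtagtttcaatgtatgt
CHCHD1, THP-1 peak, chr10:75541085-75541324: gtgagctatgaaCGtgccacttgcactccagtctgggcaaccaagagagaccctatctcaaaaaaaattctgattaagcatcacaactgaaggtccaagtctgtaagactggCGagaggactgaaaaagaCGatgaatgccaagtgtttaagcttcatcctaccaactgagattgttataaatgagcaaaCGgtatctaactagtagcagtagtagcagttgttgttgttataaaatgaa
ETV6, RS4;11 peak, chr12:11802004-11802243: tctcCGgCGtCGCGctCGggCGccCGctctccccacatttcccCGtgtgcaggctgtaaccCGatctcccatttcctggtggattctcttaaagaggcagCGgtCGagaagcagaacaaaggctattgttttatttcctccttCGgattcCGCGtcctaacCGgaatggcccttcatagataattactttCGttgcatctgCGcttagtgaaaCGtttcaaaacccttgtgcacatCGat

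The outside peaks were a larger part of the listed WDR5 peaks than of the listed H3K4me3 peaks in both lines. Peaks with no transcript within 20 kb are missing from both, in numbers unknown for either antibody. These shares are therefore not shares of all peaks called. They made up 27.2% of WDR5 peaks in RS4;11 (95% Wilson interval 24.0 to 30.6) against 4805 of 24212 H3K4me3 peaks, or 19.8%. In THP-1 cells the shares were 33.8% (27.9 to 40.2) and 22.4%, 5929 of 26523 H3K4me3 peaks. The odds ratios were 1.51 and 1.77, with Benjamini-Hochberg adjusted p of 1.0e-04 and 8.7e-04 by 2-sided Fisher's exact tests over the 25 comparisons made here. Between the lines the WDR5 share did not pass the test (odds ratio 0.731, Fisher's exact p = 0.0627, adjusted p = 0.157). H3K4me3 peaks were wider, with median widths of 1391 and 1241 bp against 396 and 426 bp for the outside WDR5 peaks. Among peaks at or above the median width of their own table, the odds ratios were 3.33 in RS4;11 (Fisher's exact p = 1.9e-19) and 3.78 in THP-1 cells (Fisher's exact p = 6.8e-10). A wider peak touches an exon or intron more readily, and this width limit keeps the wider H3K4me3 peaks. Widths were not matched between WDR5 and H3K4me3, so these tests cannot tell the antibody apart from peak width. Nor can they tell it apart from the way its chromatin was prepared. WDR5 chromatin was sonicated and H3K4me3 chromatin was cut by micrococcal nuclease.

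Among the outside peaks, more lay upstream than downstream of the listed genes by count, and no difference from H3K4me3 in this split passed the test. In RS4;11 cells 91 were upstream only, 64 downstream only, and 36 were upstream of one transcript and downstream of another. In THP-1 cells the counts were 32, 28 and 16. Of the peaks on a single side, 58.7% were upstream in RS4;11 (50.8 to 66.2) and 54.4% of H3K4me3 outside peaks were (odds ratio 1.19, Fisher's exact p = 0.323). The THP-1 shares were 53.3% (40.9 to 65.4) and 58.8% (odds ratio 0.802, Fisher's exact p = 0.429). The lines did not differ detectably either, with an odds ratio of 1.24 (Fisher's exact p = 0.539). With these numbers, differences of several percentage points lie within the intervals.

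**Figure D1:**
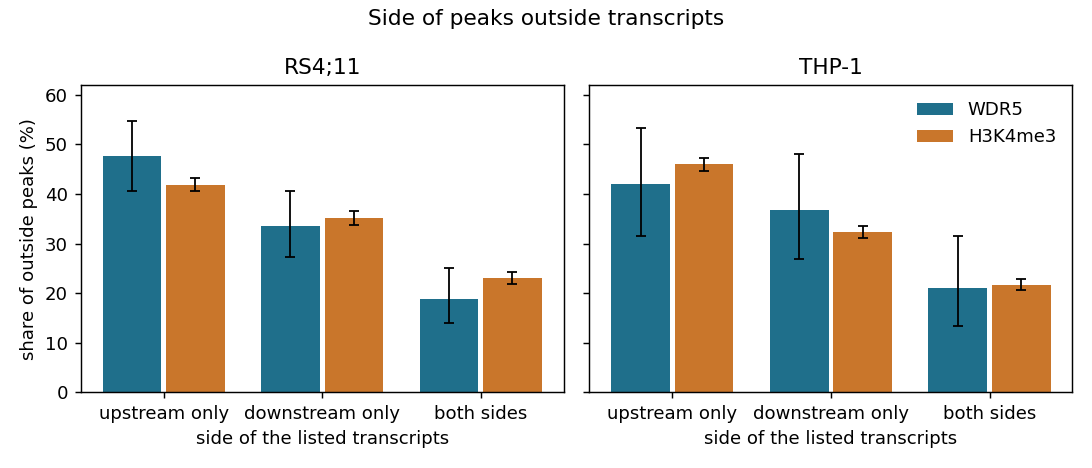
Share of peaks outside transcripts (%, vertical axis) that lie upstream only, downstream only, or on both sides of listed transcripts, for WDR5 and H3K4me3 in each line; bars are shares and lines 95% Wilson intervals over peaks. Upstream-only peaks are the tallest group for WDR5 and H3K4me3 in both lines, and in RS4;11 the WDR5 shares are 47.6%, 33.5% and 18.8%.

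The outside peaks had few genes each. In RS4;11 cells 268 genes were listed for the 191 peaks, 134 peaks had 1 gene and the most for a single peak was 5. In THP-1 cells 124 genes were listed for 76 peaks, 53 peaks had 1 gene and the most was 14, at a cluster of SNAR genes, small noncoding RNAs present in many copies on chromosome 19. Noncoding transcripts alone were listed for 14 and 10 peaks. Both lines named 15 genes, of which LIG1, the DNA ligase that joins lagging-strand fragments, was reached by peaks that do not overlap, 12790 bp upstream in RS4;11 and 19210 bp upstream in THP-1 cells.

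A later annotation placed many of these peaks in genes after all. In GENCODE release 44, 73 of 189 RS4;11 outside peaks (38.6%) and 27 of 71 THP-1 outside peaks (38.0%) overlapped a gene of some type by at least 1 bp, leaving aside 2 and 5 peaks on unplaced contigs. For 38 and 14 peaks it was a protein-coding gene, and for 36 and 11 a long noncoding RNA gene. An example is the peak listed upstream of RBMS3, an RNA-binding protein, which lies 705129 bp inside that gene as now drawn. Outside is thus a statement about the transcripts used for the deposited tables.

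Most outside peaks were not near the outermost start of a protein-coding gene in GENCODE. Only that start of each gene counted as its protein-coding TSS here, so starts of its other transcripts were missed. The peak listed upstream of RBMS3, for example, was 705129 bp from the TSS so defined. How many outside peaks lie at such other starts was not counted. From its center, an outside peak had a median distance to the nearest protein-coding TSS of 13642 bp in RS4;11 cells (quartiles 5366 and 35094 bp) and 15353 bp in THP-1 cells (7958 and 38177 bp). Within 2 kb lay 22 and 6 peaks, and beyond 20 kb lay 65 and 24. The upstream-only peaks had medians of 12065 and 12512 bp, the downstream-only peaks of 41874 and 47158 bp, and peaks on both sides of 5591 and 6811 bp. The rule sets part of this order, since an upstream peak must lie within 20 kb of a transcript start and a downstream peak need not.

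**Figure D2:**
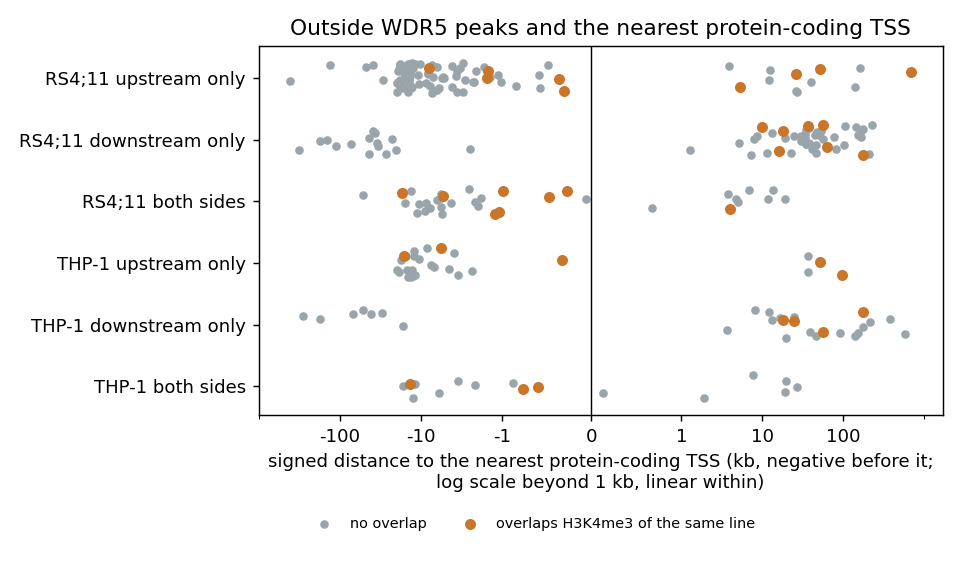
Signed distance in kb from each outside WDR5 peak's center to the nearest protein-coding TSS (horizontal axis, negative before the TSS, log scale beyond 1 kb) for the 260 peaks on annotated chromosomes, by line and side; orange points overlap an H3K4me3 peak of the same line. Of the 28 peaks within 2 kb, 24 lie before the TSS and 12 are orange.

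H3K4me3 overlapped a small part of the outside peaks, by count a larger part than of the inside peaks. In RS4;11 cells 24 of 191 outside peaks met H3K4me3 of their own line, 12.6% (8.59 to 18.0), against 34 of 512 inside peaks, 6.64% (4.79 to 9.14), where 8.25% of all WDR5 peaks did. In THP-1 cells 14 of 76 outside peaks did, 18.4% (11.3 to 28.6), against 13 of 149 inside peaks, 8.72% (5.17 to 14.4), with 12% over all. The odds ratios were 2.02 (Fisher's exact p = 0.0138, adjusted p = 0.0491) and 2.36 (Fisher's exact p = 0.0494, adjusted p = 0.137). The RS4;11 difference passed the adjusted threshold narrowly and the THP-1 difference did not. The 25 adjusted tests include some that were added after the data were seen and had smaller p. The adjusted 0.0491 depends on them, so it cannot be read as a pass among the planned tests alone, over which no adjustment was made. Without peaks on unplaced contigs or with copies in the reference, the ratios were 1.83 (Fisher's exact p = 0.0538) and 1.65 (p = 0.329), and with outside redefined by every GENCODE gene they were 1.87 (p = 0.0632) and 0.963 (p = 1.00). By its rule an outside peak lies within 20 kb of a transcript's start or end, while an inside peak can lie deep in a long intron. The tests of outside against inside peaks cannot separate this placement from the difference in overlap. Between the outside peaks of the lines no difference passed the test (odds ratio 0.636, Fisher's exact p = 0.245).

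The H3K4me3 peaks of the other line were set against the same WDR5 peaks, in tests added after the data were seen. H3K4me3 peaks of THP-1 cells overlapped 28 of the 191 RS4;11 outside peaks, 14.7% (10.3 to 20.4), where 7.54% of all RS4;11 WDR5 peaks did, against 4.88% of the inside peaks (odds ratio 3.35, Fisher's exact p = 3.9e-05, adjusted p = 4.9e-04). H3K4me3 peaks of RS4;11 cells overlapped 9 of the 76 THP-1 outside peaks, 11.8%, near the 9.78% of all THP-1 WDR5 peaks and not detectably above the inside peaks (odds ratio 1.41, Fisher's exact p = 0.482). These tests of outside against inside peaks cannot separate the placement set by the rule either. Of the RS4;11 outside peaks, 19 were marked in both lines, 5 in RS4;11 alone and 9 in THP-1 alone, with an exact McNemar p of 0.424. Of the THP-1 outside peaks, 8 were marked in both lines, 6 in THP-1 alone and 1 in RS4;11 alone, with an exact McNemar p of 0.125. Neither difference passed the test. Among RS4;11 outside peaks at or above the median width, however, 1 was marked in RS4;11 alone and 9 in THP-1 alone (exact McNemar p = 0.0215). With peaks of every width, 158 and 61 outside peaks had no H3K4me3 peak in either line.

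**Figure D3:**
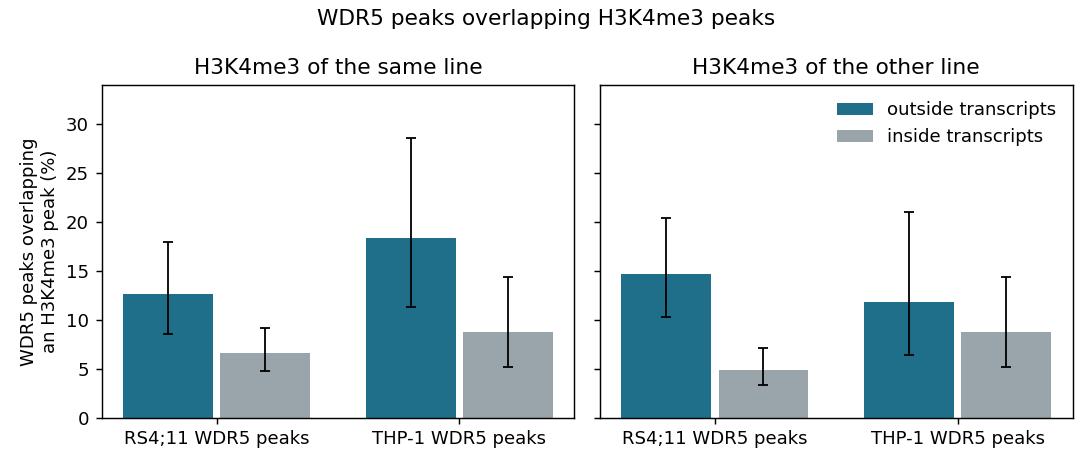
Share of WDR5 peaks (%, vertical axis) that overlap an H3K4me3 peak of the same line (left) or of the other line (right), for peaks outside and inside transcripts; lines are 95% Wilson intervals over peaks. The outside share is the higher in all 4 pairs, from 11.8% against 8.72% to 14.7% against 4.88%.

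No difference between upstream and downstream peaks in the mark was detectable. In RS4;11 cells H3K4me3 overlapped 9 of 91 upstream-only peaks (9.89%, 5.29 to 17.7) and 7 of 64 downstream-only peaks (10.9%, 5.40 to 20.9). In THP-1 cells it overlapped 6 of 32 (18.8%, 8.89 to 35.3) and 5 of 28 (17.9%, 7.88 to 35.6). Both Fisher's exact p were 1.00, and the intervals are wide enough to hold a difference of more than 10 percentage points. Of the peaks on both sides, 8 of 36 and 3 of 16 were marked.

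Beyond direct overlap, outside peaks had the shorter median distance to H3K4me3. The median edge-to-edge distance to the nearest H3K4me3 peak of the same line was 13336 bp for outside and 28574 bp for inside peaks in RS4;11, and 11870 and 21183 bp in THP-1 cells. Within 20 kb there was an H3K4me3 peak for 112 of 191 outside and 210 of 512 inside RS4;11 peaks (58.6% and 41.0%), and for 55 of 76 and 73 of 149 THP-1 peaks (72.4% and 49.0%). These distances were not tested: an outside peak is by its rule within 20 kb of the end of a transcript, while an inside peak can lie deep in a long intron. The nearest protein-coding TSS carried an H3K4me3 peak for 84 of 189 outside and 229 of 510 inside RS4;11 peaks (44.4% and 44.9%), with 44.8% over all. For THP-1 cells it did so for 31 of 71 and 75 of 148 (43.7% and 50.7%), with 48.4% over all, and neither difference passed Fisher's exact test (p = 0.932 and 0.387). A further setting counted the TSS of every transcript of any gene type, protein-coding or not. The nearest was then marked for 37 of 189 outside and 62 of 510 inside RS4;11 peaks. For THP-1 cells it was marked for 16 of 71 and 19 of 148. The RS4;11 odds ratio turned from 0.982 to 1.76 (Fisher's exact p = 0.0147) and the THP-1 ratio from 0.754 to 1.98 (p = 0.0775).

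**Figure D4:**
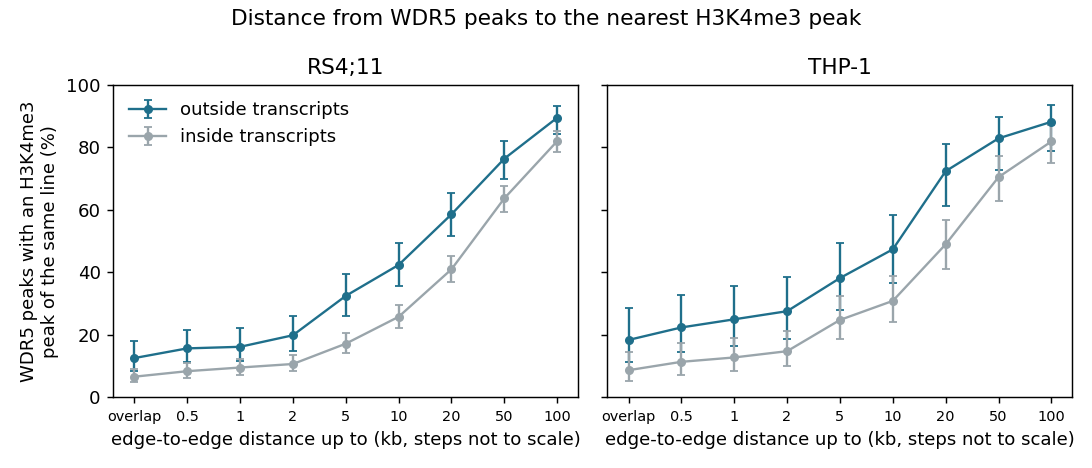
Share of WDR5 peaks (%, vertical axis) with an H3K4me3 peak of the same line at or within the distance on the horizontal axis (kb, steps not to scale), for peaks outside and inside transcripts; lines are 95% Wilson intervals over peaks. The curve of outside peaks is above that of inside peaks at each distance, from 12.6% against 6.64% at overlap to 89.5% against 82.0% at 100 kb in RS4;11.

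The 24 marked outside peaks of RS4;11 cells lay near outermost gene starts, farther from them, or in copied DNA. Those farther away can still lie near the start of another transcript of a gene. Of the 22 outside peaks within 2 kb of a protein-coding TSS, 9 overlapped H3K4me3 (40.9%), and of the 167 farther away 15 did (8.98%). In THP-1 cells the counts were 3 of 6 and 9 of 65 (13.8% of the latter). The H3K4me3 peaks over the outside peaks had a median width of 1952 bp in RS4;11 and 610 bp in THP-1 cells, and 14 of 24 and 6 of 14 outside peaks lay wholly within them.

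MYBBP1A, a nucleolar protein that binds MYB, had its RS4;11 peak at chr17:4458729-4459190, 278 bp before the TSS, inside an H3K4me3 peak of 2679 bp. L3MBTL2, a chromatin protein of a Polycomb-like complex, had a peak 301 bp before its TSS (chr22:41600850-41601120), and CRBN, the ubiquitin ligase receptor bound by thalidomide, 358 bp before (chr3:3221656-3221881). The peak of MRPL41, a mitochondrial ribosomal protein, was 470 bp before the TSS with 72.1% GC (chr9:140445618-140446105). H3K4me3 covered or touched all of these in both lines.

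ICAM1, an adhesion receptor of leukocytes, was 1200 bp from its peak, which was listed upstream of ICAM4 and ICAM5 too. ZNF700 (989 bp) and RBMXL1 (1091 bp) had marked peaks in the space shared with ZNF69 and GBP3, a guanylate-binding protein. For MCM3, a subunit of the replicative helicase, the peak lay 1510 bp before the TSS under an H3K4me3 peak of 4237 bp in RS4;11 cells, the widest over any outside peak, and the THP-1 H3K4me3 peak ended 30 bp away. For S100B, a calcium-binding protein, the WDR5 peak lay 1462 bp before the TSS and overlapped a 531 bp H3K4me3 peak in RS4;11, and the nearest H3K4me3 peak in THP-1 cells was 11860 bp off.

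Other marked RS4;11 peaks were over 2 kb from the outermost start of any protein-coding gene, but not always far from a transcript start. Those by RBMS3, ASAP1 and HKR1 lay past that start, yet were listed upstream of a transcript of the gene, so within 20 kb of its start. The peak behind RPN1, a subunit of the oligosaccharyltransferase, was 853 bp wide (chr3:128335261-128336113) and lay 64231 bp from the TSS under an H3K4me3 peak of 2961 bp. Peaks listed as downstream of BTN2A1, a butyrophilin, and between BEND3 and C6orf203 were 16266 and 36522 bp from the nearest TSS and marked in both lines, and in GENCODE the center of the first lies 2452 bp before the end of BTN2A1, inside the gene. The peak between TUBB2A, a beta-tubulin, and BPHL was 5275 bp before the TSS with 68.8% GC, also marked in both lines. So were the peaks by SEC22B, a vesicle fusion protein with 2 copies of its peak in the reference, HKR1, a zinc finger gene, LEKR1 with PA2G4P4, and FAM70B with GRK1. Peaks by RBMS3, by ASAP1, a GTPase-activating protein, and by NCAPH2, a condensin II subunit, were marked in RS4;11 cells alone, with the nearest THP-1 H3K4me3 peak 124, 58389 and 8088 bp away. At MCM3 and RBMS3 the mark thus missed the peak in the other line by a short gap.

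Besides peaks found in both lines, 6 RS4;11 outside peaks met H3K4me3 in THP-1 cells alone. They included peaks upstream of AKR1C2, a steroid-metabolizing reductase, C16orf73, OR1F1, an olfactory receptor, NPR2, a natriuretic peptide receptor, and KLHL38. For these the nearest RS4;11 H3K4me3 peaks were 67551, 48460, 23435, 15818 and 81860 bp away. The reverse was seen once, behind RRAS2, a RAS-like GTPase, and SPON1, with THP-1 H3K4me3 33179 bp away.

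In THP-1 cells 3 of the 14 marked outside peaks were within 2 kb of a protein-coding TSS. CHCHD1, a mitochondrial ribosomal protein, had a peak 600 bp before its TSS (chr10:75541040-75541369) under an H3K4me3 peak of 2970 bp. C4orf37 had one at 326 bp, marked in both lines. The peak 758 bp before PPM1M, a protein phosphatase, was marked in THP-1 cells, and the nearest RS4;11 H3K4me3 peak was 166 bp off (chr3:52278885-52279148). It was also listed near TLR9, the receptor for unmethylated CG-rich DNA, and behind WDR82, a subunit of SET1 H3K4 methyltransferase complexes, whose end was 9434 bp away. The peaks 16170 bp before FCHO2, an endocytic protein, and behind C18orf55, a mitochondrial import factor, were marked in THP-1 cells alone.

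Some outside peaks sat at gene starts without the mark. In RS4;11 cells 13 of the 22 peaks within 2 kb of a protein-coding TSS had no H3K4me3 peak of their own line. They included PLEKHO1 at 60 bp, ETV6, an ETS factor rearranged in leukemia, at 484 bp, MSL1, a subunit of a histone acetyltransferase complex, at 572 bp, and BBC3, the pro-apoptotic BCL2 relative also called PUMA, at 1022 bp. Their nearest H3K4me3 peaks in RS4;11 were 3808, 7769, 7056 and 6843 bp away. BCL9, a coactivator of beta-catenin, lay 1663 bp beyond its peak (chr1:147011424-147011792), and there the H3K4me3 peak over its TSS ended 412 bp short of the WDR5 peak, while THP-1 cells had none within 58793 bp. In THP-1 cells the 3 such peaks were by WDR74, NKX6-3 and the pair SULT6B1 and CEBPZ, the last 213 bp from H3K4me3. As drawn in GENCODE, OR2T33, SULT6B1 and NKX6-3 enclose their peaks, and PLEKHO1 and WDR74 overlap theirs in part.

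At gene ends, 11 RS4;11 and 2 THP-1 peaks had their center within 2 kb of a listed gene's end. LCK, a SRC-family kinase of T cells, ended 283 bp before its peak, STAP1, an adaptor of B-cell receptor signaling, 537 bp before, and DHX30, an RNA helicase, 190 bp before. None of these 3 peaks overlapped H3K4me3 in RS4;11 cells, but others of the 11 did. Among them were the peak 460 bp past the end of BEND3 and the MYBBP1A peak, 1262 bp past the end of GGT6. In THP-1 cells the marked CHCHD1 peak lay 1196 bp past the end of FUT11.

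Outside peaks overlapped a WDR5 peak of the other line more often than inside peaks did, in a comparison added after the data were seen, as was that of copies. Of the RS4;11 outside peaks 10 of 191 (5.24%, 2.87 to 9.37) overlapped a THP-1 WDR5 peak, where 1.85% of all RS4;11 WDR5 peaks did, and 3 of 512 inside peaks (0.586%). Seen from THP-1 cells, the same 10 pairs were 13.2% of 76 outside peaks (7.31 to 22.6), where 5.78% of all did, against 3 of 149 inside peaks (2.01%). The odds ratios were 9.37 (Fisher's exact p = 2.3e-04, adjusted p = 0.00117) and 7.37 (Fisher's exact p = 0.00137, adjusted p = 0.00569). Both rest on the same pairs of peaks, so they are not separate evidence.

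Copies in the reference moved with the same split. At least 2 copies, at 95% identity over 80% of the peak, were found for 10 of 191 RS4;11 outside peaks (5.24%), with 1.85% over all, and for 3 of 512 inside peaks (odds ratio 9.37, Fisher's exact p = 2.3e-04, adjusted p = 0.00117). In THP-1 cells it was 9 of 76 (11.8%), with 6.22% over all, and 5 of 149 (odds ratio 3.87, Fisher's exact p = 0.0185, adjusted p = 0.0580). Of the 10 shared pairs, 5 had copies or lay on an unplaced contig in both lines' coordinates. Leaving such peaks out, 5 of 181 RS4;11 outside and 1 of 508 inside peaks were shared (odds ratio 14.4, Fisher's exact p = 0.00566). For THP-1 peaks it was 5 of 64 and 1 of 144 (odds ratio 12.1, Fisher's exact p = 0.0112). This limit did not take out all repeated DNA. Of those 5, the 2 ROCK1 peaks, which lie close together, and the MAMDC2 peak lie in tandem repeats, and their part was not tested. The reads had been kept only where they aligned uniquely, and no source used here states an input control.

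The shared peaks by gene were as follows in the data of both lines. The 2 near MIR1977 on chromosome 1 were 457 and 608 bp wide in RS4;11 and 583 and 760 bp in THP-1 cells, each overlapped H3K4me3 peaks in both lines, and they lie in nuclear copies of mitochondrial genes. The peak behind NBR1, an autophagy receptor, and TMEM106A was 796 and 1051 bp wide, was marked in both lines by H3K4me3 peaks of 824 and 972 bp, and has 1 copy in the reference. It had no repeat found here, and lies in LINC00854 in GENCODE.

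Behind ROCK1, a protein kinase, the wider peak measured 857 bp in RS4;11 and 1730 bp in THP-1 cells and the narrower 539 and 619 bp. They lie close together beside the centromere of chromosome 18, 178750 to 180006 bp from the TSS, and 71.5% of bases in the narrower RS4;11 peak equalled the base 171 bp further on, against a median of 26.5% at other distances. The narrower peak overlapped H3K4me3 in both lines, and the wider lay 166 and 88 bp from an H3K4me3 peak of its line. A unit of 171 bp is that of alpha satellite, the tandem repeat of human centromeres.

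The MAMDC2 peak, 5490 bp before the TSS, held 58 GGAAT units in 528 bp in RS4;11 and 61 in 898 bp in THP-1 cells, the unit of a pericentromeric satellite. Upstream of DGCR6, a gene of the DiGeorge region, the peaks were 502 and 781 bp wide. Both the MAMDC2 and the DGCR6 peak overlapped H3K4me3 in THP-1 cells and none in RS4;11 cells, where the nearest was 218494 and 12771 bp away. On unplaced contigs the shared peaks were listed for RN5-8S1, the 5.8S ribosomal RNA, and for DUX4, a double homeobox factor in a tandem array. The DUX4 peak was marked in THP-1 cells alone, and the shared RN5-8S1 peak in neither line.

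The last shared peak, listed as downstream of REXO1L1 on chromosome 8, was 292 bp wide in each line, had 10 copies, and the nearest H3K4me3 peak of either line was 290613 bp away. THP-1 cells had 2 more outside peaks at this array, with 9 and 12 copies. Copies were most numerous in THP-1 cells for the marked peak by DUSP5P (17 copies, 66.9% GC) and for the SNAR peak (17 copies), which lay 212 bp from H3K4me3.

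Shared outside peaks had the higher median width in both lines. The median width was 515 bp for shared and 394 bp for the other outside peaks in RS4;11, and 712 and 416 bp in THP-1 cells, and the groups overlap. The 3 widest were in RS4;11 the ROCK1, RPN1 and NBR1 peaks and in THP-1 cells a 2801 bp peak by MIR1826 (chr16:33973180-33975980) and the ROCK1 and NBR1 peaks. The MIR1826 peak was not shared, its bases equalled those 171 bp on in 55.6%, against 27.5% at other distances, and H3K4me3 lay 2091293 bp away in THP-1 cells. No test was run on width, which also makes an overlap more likely.

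**Figure D5:**
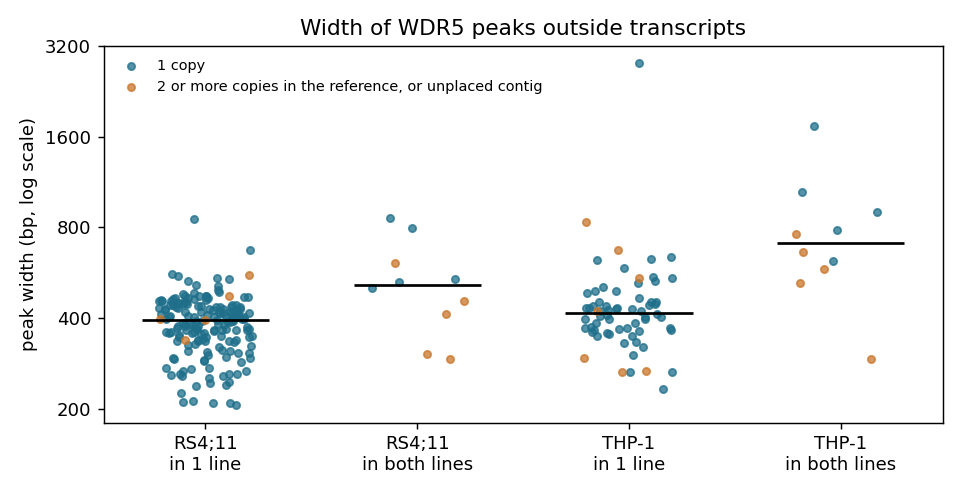
Width of each outside WDR5 peak (bp, log scale) by line and by whether it overlaps a WDR5 peak of the other line; black lines are medians, and orange points have 2 or more copies in the reference or lie on an unplaced contig. The peaks in both lines have medians of 515 and 712 bp against 394 and 416 bp, and the points of the groups overlap.

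For CpG-rich peaks and the E-box, no difference between outside and inside peaks passed the test, and median GC was not tested. It was 42.9% for outside and 39.6% for inside peaks in RS4;11, and 38.7% and 39.3% in THP-1 cells. Outside peaks with H3K4me3 had medians of 48.4% and 47.1%, and those without it 42.6% and 37.9%. CpG-rich peaks, with over 50% GC and an observed to expected CG ratio over 0.6, were 6 of 191 outside and 10 of 512 inside in RS4;11 (odds ratio 1.63, Fisher's exact p = 0.394). In THP-1 cells they were 4 of 76 and 7 of 149 (odds ratio 1.13, Fisher's exact p = 1.00). None of the 64 and 28 downstream-only peaks was CpG-rich, which by a limit of 3 peaks allows shares of up to 4.69% and 10.7%.

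The E-box CACGTG, the site of MYC and related factors and its own reverse complement, was in 5 of 191 RS4;11 outside peaks (2.62%) and 22 of 512 inside peaks (4.30%), with a Fisher's exact p of 0.381. It was in 0 of 76 THP-1 outside peaks, which allows a share of up to 3.95% by a limit of 3 peaks, and in 4 of 149 inside peaks (Fisher's exact p = 0.303). The 5 outside peaks were listed for FAM70B and GRK1, SCNN1B, AGPAT9, UTP23 and QSOX2, and the first overlapped H3K4me3. As a rough yardstick, 7.26% of 35116 RefSeq promoters of 300 bp on GRCh38.p14 hold the same letters. Length and base composition were not matched between these promoters and the peaks, so no lack of E-boxes can be read from it.

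Genes of the leukemia and chromatin lists near outside peaks numbered 0 to 2 in each list and line. Of all 18576 genes in the 4 tables, 1.44% were listed for an outside peak in RS4;11 and 0.668% in THP-1 cells, so counts of 0 or 1 in lists of this size are no result about a list. Of 30 MLL fusion targets found in any table, JMJD1C, a histone demethylase relative, was listed in RS4;11 and none in THP-1 cells. Its peak lay 52324 bp inside the gene as drawn in GENCODE. Of 19 genes of H3K4 methyltransferase complexes WDR82 was listed in THP-1 cells and none in RS4;11. Of 21 BCL2-family genes BBC3 was listed in RS4;11 cells, and of 15 nuclear factors of Wnt signaling BCL9.

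Of 31 B-lineage genes, RAG1, a subunit of the recombinase of antigen receptor genes, was listed in RS4;11 and LYN, a SRC-family kinase, in THP-1 cells. The LYN peak was 3478 bp before the TSS, which carried H3K4me3, and the nearest H3K4me3 peak was 2413 bp away in THP-1 and 1990 bp in RS4;11 cells. Of 40 myeloid genes LILRB2, an inhibitory receptor, was listed in THP-1 cells and none in RS4;11. Of 18 progenitor factors ETV6 and IKZF2 were listed in RS4;11 and MECOM in THP-1 cells, the last 2 from peaks 18835 and 5330 bp past the gene's end. No cell cycle gene of 24, Polycomb gene of 26 or histone gene of 81 was near an outside peak of either line, and 1, 1 and 3 of them were at inside peaks of RS4;11 cells. At the shares over all genes, none of the counts of 0 sets a list apart.

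Among the gene families, 9 of 529 zinc finger genes were near 6 RS4;11 outside peaks, including ZNF560 at 589 bp, and none near a THP-1 outside peak. The RS4;11 share of this family is near the 1.44% over all genes. Olfactory receptor genes numbered 8 of 123, near 6 outside peaks, in RS4;11 and 0 in THP-1 cells, where 1.44% and 0.668% of all genes were listed. At inside peaks they numbered 0 in both lines, where 3.36% and 1.05% of all genes were listed. Cadherin and protocadherin genes numbered 0 of 95 near outside and 25 at inside peaks of RS4;11 cells. How many inside peaks listed these 25 was not counted. A single THP-1 peak by WDR74 and SLC3A2 accounted for 8 small nucleolar RNA genes of the SNHG1 host. Against 268 genes near outside and 624 at inside peaks in RS4;11 cells these are small counts, no enrichment was tested, and neighbouring members of a family share a peak.

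Outside peaks came in groups of at least 3 within 1 Mb at 3 places. In RS4;11 cells one was at KCTD12 and SCEL on chromosome 13 and one at RAD21, a cohesin subunit, UTP23 and MED30, a Mediator subunit, on chromosome 8. In THP-1 cells it was the REXO1L1 array described above.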

How the data were processed

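The data are 4 ChIP-seq samples, 1 for each pairing of antibody (WDR5, H3K4me3) and line (RS4;11, THP-1), as labelled. Since 2 labels give the other type of leukemia for the line, the type was taken from the paper. Per the methods, the authors sonicated chromatin for WDR5 and used micrococcal nuclease for H3K4me3, aligned reads to hg19 with Eland (2 mismatches, unique alignments), ran MACS with its default settings and joined peaks to transcripts. CASAVA 1.7 and 1.8.2 are named in the submitters' processing notes. The MACS version and an input control are not given in the sources used here. The deposited tables hold 1 line per peak and transcript, with a yes or no each for exon, intron, and within 20 kb before or after it, and no measure of peak strength, so the depth is unknown. They leave out peaks with no transcript within 20 kb.

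Lines were reduced to distinct intervals, read as 1-based. An overlap was at least 1 shared bp. GRCh37 and GENCODE release 44 gave sequence, genes and TSS, and blastn 2.17.0 gave copies (95% identity over 80% of the peak). A protein-coding TSS was the outermost start of a protein-coding gene, except where the TSS of every transcript was counted. Listed genes were matched by symbol, 254 of 275 pairs of peak and gene in RS4;11 and 93 of 132 in THP-1 cells. Shares have 95% Wilson intervals over peaks, which are not independent where they lie close together or in copies of one sequence. They were compared with 2-sided Fisher's exact tests or exact McNemar tests, adjusted by Benjamini-Hochberg over 25 tests with a threshold of 0.05. Overlap and tests were checked on simulated data with Python 3.11.15 and scipy 1.17.1. Named genes were those at outside peaks with H3K4me3, shared between lines, within 2 kb of a listed gene's start or end, among the 3 widest, in the gene lists or in clusters. Where these were many, some were named. The members and lists were chosen with earlier results of these data known, and the tests of sharing between lines, copies and H3K4me3 of the other line were added after seeing the data. The planned test on repeat masking was not run, because the reference used here is not masked.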

Additional observations from a re-analysis of the deposited data

How the results depend on the processing

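Over 25 results and 113 alternatives, 87 kept their direction and their side of the threshold. The main odds ratios of same-line H3K4me3 overlap, outside against inside, became 1.82 in RS4;11 and 1.90 in THP-1 cells with 1 peak kept of those under 10 kb apart, 1.87 and 0.963 with outside taken from GENCODE, and 1.83 and 1.65 without unplaced contigs and peaks with copies, each with Fisher's exact p over 0.05. With peaks at or above the median width the THP-1 ratio was 2.36 (Fisher's exact p = 0.167). There, fewer peaks entered the test. Under the same width limit the RS4;11 outside peaks marked in the same line alone less those marked in the other alone came to -8 (exact McNemar p = 0.0215). The cause of these and the following changes was not tested.

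Upstream against downstream overlap turned to 1.09 in RS4;11 without copies, and in THP-1 cells to 0.429 with the width limit, 0.920 with 1 peak per 10 kb and 0.913 without copies. RS4;11 against THP-1 outside peaks turned to 1.19 with GENCODE. A marked nearest TSS turned in RS4;11 to 1.13 (width), 1.01 (10 kb), 1.02 (copies) and 1.76 (TSS of every transcript of any gene type). In THP-1 cells it turned to 1.98 with the TSS of every transcript. THP-1 CpG-rich peaks turned to 0.716, 0.584 and 0.441 under width, 10 kb and copies. THP-1 copies gave 3.33 (width) and 2.64 (10 kb), neither passing the threshold. THP-1 overlap with RS4;11 H3K4me3 gave 2.36 (Fisher's exact p = 0.0494) with a 1 kb margin, 0.959 with 10 kb and 0.854 without copies. Alternatives without copies and those of added tests were chosen after seeing the data. Repeat masking and a stricter peak threshold were not run, since the files used here give no strength. No analysis paired by culture was possible because each group has 1 sample, and the McNemar tests pair by peak only. Depth sets no limit that can be given, and a peak missed in 1 line may lie just under its threshold.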
